A study of Mus musculus with 24 samples.

Results

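The genes described here are 35 genes of mitosis, chosen by name out of 29716 genes in the count table. They cover 10 roles: proliferation markers, cyclins with Cdk1, Cdc25 phosphatases, mitotic kinases, the chromosomal passenger complex, the spindle checkpoint, centromere and kinetochore, spindle motors and microtubule proteins, cytokinesis, and the anaphase promoting complex with securin. Each symbol matched 1 gene, and all 35 passed the filter on low counts that left 15618 genes for testing. They were measured by polyA RNA-seq in 24 libraries of CD31+ cells sorted from E10.5 mouse embryos of the C57BL/6J strain. The sorted populations were Kit+ CD45+ cells, Kit+ CD45- cells and Kit- CD41+ CD45- cells, each with 4 anti-Dll4 and 4 anti-human IgG libraries. CD31 marks endothelial and early blood cells, Kit and CD41 mark emerging and early blood progenitors, and CD45 marks blood cells further along. Dll4 is a Notch ligand of arterial endothelium, and the design asks what an antibody against it changes within hours. All 6 groups shared the rest of the treatment: antibody was injected into the heart, and incubation lasted 5 h at 37 °C under 5% CO2, with embryos in myeloid long-term medium with 10 ng/ml IL-3, 10 µM hydrocortisone and 5 µg/ml of the antibody. The labels name no dissected tissue and do not say whether replicates came from separate embryos or pools, so p-values here cover only library-to-library spread, which may be technical. Cells without injection or culture were not analysed here.

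Mitosis is driven by Cdk1 bound to A- and B-type cyclins and is switched on by Cdc25 phosphatases. Aurora and Polo kinases, kinesins and microtubule-binding proteins build the spindle, the checkpoint delays anaphase until kinetochores are attached, and the anaphase promoting complex then destroys cyclin B and securin. Most of these genes are transcribed in G2 and M phase, many through CCAAT boxes bound by NF-Y and a cell cycle genes homology region (CHR) bound by the DREAM and MuvB complexes. Their RNA therefore serves as a measure of how much of a population is in the later cell cycle. In a bulk sample, fewer cells in G2 and M phase and less of each RNA per cell cannot be told apart.

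Promoters are shown because the members are known for these shared motifs. Of the 35 members, 29 had a promoter in the RefSeq table for GRCm38.p6, which holds 250 bases before and 50 after the annotated start; those without an entry were Aurkb, Ccna2, Cdc25c, Incenp, Kif20a and Tpx2. The CHR, searched as TTTGAA on both strands, was in 20 of the 29 (69.0%), against 20.2% of all 27025 genes in that table. CCAAT, also on both strands, was in 21 of 29 (72.4%), against 41.1% of all genes. Both motifs together were in 17 of 29 (58.6%), against 8.97% of all genes, and no CHR overlapped a CCAAT. Neither motif was in the window of Birc5, Mad2l1, Nuf2, Nusap1 or Pttg1. The RefSeq start lay 270 bases from the gene start in the deposited annotation for Pttg1 and 169 for Mad2l1. For Birc5 it lay 14 bases away, and for Nuf2 and Nusap1 0. For Kif2c, counted with a CHR, the distance was 3867 bases. Windows with such distances may miss the start of the gene as counted. A match says only that the letters occur in the window. The 5 stretches below are the 200 bases upstream of the RefSeq start of 5 members described below, 5′ to 3′ on the gene's own strand, with CHR and CCAAT matches on either strand in capitals.
Mki67, chr7:135716380-135716579, minus strand: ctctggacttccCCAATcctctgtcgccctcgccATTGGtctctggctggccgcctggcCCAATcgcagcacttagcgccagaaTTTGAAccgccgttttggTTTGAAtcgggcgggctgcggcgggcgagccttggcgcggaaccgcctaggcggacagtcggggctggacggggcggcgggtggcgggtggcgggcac
Hmmr, chr11:40733438-40733637, minus strand: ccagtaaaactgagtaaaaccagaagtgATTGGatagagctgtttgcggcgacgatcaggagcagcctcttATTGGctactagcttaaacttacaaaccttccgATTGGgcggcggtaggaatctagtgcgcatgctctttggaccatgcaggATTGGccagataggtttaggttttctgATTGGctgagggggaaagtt
Kif11, chr19:37376182-37376381, plus strand: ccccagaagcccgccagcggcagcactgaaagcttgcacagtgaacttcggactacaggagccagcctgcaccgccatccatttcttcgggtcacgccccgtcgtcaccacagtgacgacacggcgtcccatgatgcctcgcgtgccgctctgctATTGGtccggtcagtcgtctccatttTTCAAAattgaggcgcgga
Kif23, chr9:61946800-61946999, minus strand: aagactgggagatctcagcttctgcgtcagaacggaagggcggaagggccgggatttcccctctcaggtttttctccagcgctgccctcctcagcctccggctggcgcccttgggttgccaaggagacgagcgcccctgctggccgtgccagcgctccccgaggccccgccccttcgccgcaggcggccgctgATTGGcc
Cdc25b, chr2:131186748-131186947, plus strand: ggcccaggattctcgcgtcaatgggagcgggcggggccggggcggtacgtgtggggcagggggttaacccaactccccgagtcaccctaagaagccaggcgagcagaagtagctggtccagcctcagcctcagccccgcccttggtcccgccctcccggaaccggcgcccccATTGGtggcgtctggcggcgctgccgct
Mki67 has 2 CHR and 3 CCAAT matches in this stretch, Hmmr has 5 CCAAT matches, Kif11 has 1 of each, and Kif23 and Cdc25b have 1 CCAAT match each. The CHR matches of Hmmr and Kif23 lie in the window outside the printed stretch, and the Cdc25b window holds no CHR match.

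The libraries held 8718351 to 11379830 counts and 18063 to 21093 detected genes each. Levels are given as CPM, counts divided by the TMM-scaled library size, which are not corrected for gene length. Kit averaged 64.2 ± 11.8 CPM with anti-Dll4 and 60.8 ± 16.9 CPM with IgG in Kit+ CD45+ cells (SD, n = 4), 33.6 ± 11.7 and 37.9 ± 4.72 CPM in Kit+ CD45- cells, and 1.87 ± 0.813 and 3.84 ± 1.47 CPM in Kit- CD41+ cells. Ptprc, which encodes CD45, averaged 79.1 ± 21.6 and 82.3 ± 33.0 CPM in Kit+ CD45+ cells, and 0.397 ± 0.477 and 0.811 ± 0.785 CPM in Kit+ CD45- cells. In Kit- CD41+ cells Ptprc averaged 0.222 ± 0.445 CPM with anti-Dll4 and had no count in the 4 IgG libraries. Itga2b, which encodes CD41, averaged 23.9 ± 14.2 and 14.6 ± 2.89 CPM, 39.6 ± 11.8 and 58.6 ± 31.3 CPM, and 427 ± 122 and 539.8 ± 162 CPM, with the populations in the same order. Pecam1, which encodes CD31, was present in every library, at 128 to 267 CPM with anti-Dll4 and 174 to 295 CPM with IgG, 47.0 to 120.0 and 102 to 253 CPM, and 44.8 to 59.1 and 51.9 to 75.8 CPM, again in that order. Globin genes took at most 0.0226% of the counts in Kit+ CD45+ libraries, but 22.1% to 49.3% in the anti-Dll4 and 16.8% to 33.7% in the IgG libraries of Kit+ CD45- cells, and 8.34% to 14.1% and 4.18% to 9.79% in those of Kit- CD41+ cells. The erythroid marker list (17 of 18 genes in the table) summed to 215907 to 948002 CPM with anti-Dll4 and 155056 to 436603 CPM with IgG in Kit+ CD45- cells, 89304 to 161293 CPM and 41342 to 106750 CPM in Kit- CD41+ cells, and 99.6 to 236 CPM in the 8 Kit+ CD45+ libraries, where Slc4a1 was at 0 under both antibodies. A macrophage list of 10 genes summed to 861 to 1966 CPM with anti-Dll4 and 133 to 2199 CPM with IgG in Kit+ CD45+ cells, with replicate 1 of IgG the one library far below the others, and to at most 11.8 CPM elsewhere. A megakaryocyte and platelet list of 15 genes summed to 24646 to 31922 CPM in Kit- CD41+ libraries and to at most 4164 CPM elsewhere. Libraries that stand apart are therefore replicate 1 of Kit+ CD45+ with IgG, replicate 1 of Kit+ CD45- with IgG (the lowest globin of its population) and replicate 4 of Kit+ CD45- with anti-Dll4 (the highest). Exons of 7 members overlap a gene on the other strand, by 22.8% of the member's exon bases for Ube2c (Tnnc2), 12.5% for Ccna2 (Exosc9), 11.1% for Prc1 (Rccd1), 7.09% for Plk1 (Gm44985), 4.24% for Nusap1 (Oip5), 2.84% for Cdc20 (Elovl1) and 2.47% for Cdc25b (Spef1). The counting is not stated to use strand, so reads in those overlaps cannot be told apart. Summed over the 24 libraries, counts of the other gene and of the member were 297 and 140641 for Ube2c and 46575 and 78143 for Ccna2. They were 18698 and 52745 for Prc1, 2305 and 22432 for Plk1, and 18656 and 47244 for Nusap1. For Cdc20 they were 36080 and 57729, and for Cdc25b 566 and 3773. A snoRNA inside Top2a on the same strand covers 1.35% of its exon bases.

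The mitosis genes were expressed in every library, and most were highest in Kit+ CD45- cells. Of the 35, 25 had their highest group mean in Kit+ CD45- cells with anti-Dll4, 3 in the same cells with IgG and 7 in Kit+ CD45+ cells with IgG. The lowest group mean was in Kit- CD41+ cells for 8 members with anti-Dll4 and 15 with IgG, and in Kit+ CD45+ cells for 5 with anti-Dll4 and 7 with IgG. The ratio of the highest to the lowest group mean ran from 1.08 for Bub3, a checkpoint protein, to 12.8 for Cdc25b, an activator of Cdk1, and Mki67 was next at 3.69. The mean log2(CPM + 1) over the 35 genes was 7.00 ± 0.0747 with anti-Dll4 and 7.07 ± 0.0853 with IgG in Kit+ CD45+ cells (SD, n = 4). Kit+ CD45- libraries averaged 7.46 ± 0.152 with anti-Dll4 and 7.34 ± 0.103 with IgG, and Kit- CD41+ libraries 6.95 ± 0.0718 and 6.89 ± 0.130. The order of the populations depends on what the counts are set against. As a share of all counts, globin included and without TMM, the 35 genes took 0.813% ± 0.0033 with anti-Dll4 and 0.838% ± 0.0424 with IgG in Kit+ CD45+ cells, above 0.656% ± 0.0955 and 0.700% ± 0.0441 in Kit+ CD45- cells and 0.594% ± 0.0357 and 0.607% ± 0.0432 in Kit- CD41+ cells. As a share of the counts outside globin genes, they took 0.813% ± 0.0033 and 0.838% ± 0.0424 in Kit+ CD45+ cells, below 1.02% ± 0.0624 and 0.962% ± 0.0733 in Kit+ CD45- cells and above 0.673% ± 0.0434 and 0.650% ± 0.0568 in Kit- CD41+ cells, again with anti-Dll4 first. Per kilobase of exon, which could be computed for 30 of the 35 members, Ccnb2 (cyclin B2) had the highest level in all 6 groups, at 265 CPM per kb with anti-Dll4 and 238 CPM per kb with IgG in Kit+ CD45+ cells, 375 and 325 CPM per kb in Kit+ CD45- cells, and 349 and 309 CPM per kb in Kit- CD41+ cells. Ube2c, the ubiquitin-conjugating enzyme of the anaphase promoting complex, was second in each group.

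**Figure D1:**
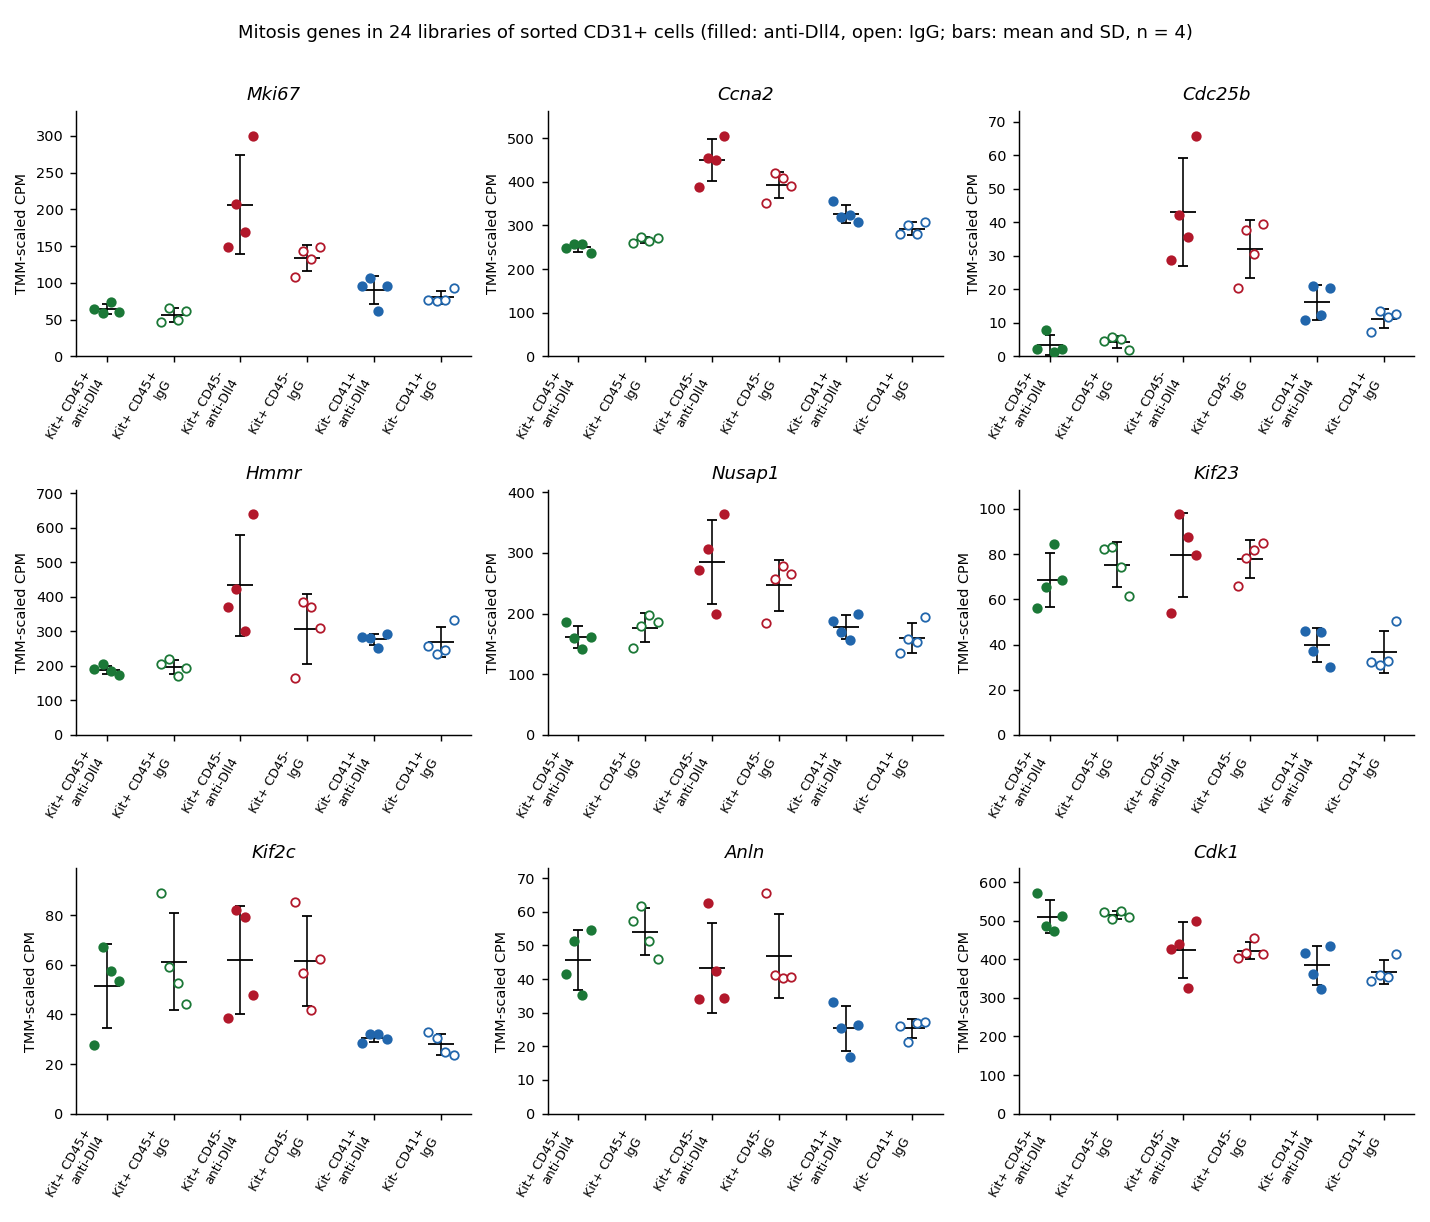
TMM-scaled CPM of 9 mitosis genes, with 1 point per library (filled for anti-Dll4, open for IgG), black bars at the mean and SD of 4 libraries, and populations by colour. Group means of Mki67, Ccna2, Cdc25b and Hmmr are highest in Kit+ CD45- cells, although Hmmr libraries with IgG overlap those of the other populations. Kif23, Kif2c and Anln sit together in both Kit+ populations and lower in Kit- CD41+ cells.

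On the TMM scale, Kit+ CD45- cells had more mitosis RNA than Kit- CD41+ cells under both antibodies. With anti-Dll4, 18 of 35 members were higher and none lower, and with IgG 14 were higher and none lower, by edgeR's quasi-likelihood test at a Benjamini-Hochberg adjusted p under 0.05 over all genes. Of all 15618 genes, 14.7% were called higher with anti-Dll4 and 14% with IgG (29.9% and 27.9% in either direction). All 35 fold changes were positive under both antibodies, with a median log2 fold change of 0.50 with anti-Dll4 and 0.40 with IgG, against 0.07 and 0.06 over all genes. No member was lower at an unadjusted p under 0.05 or by DESeq2, which called 20 higher with anti-Dll4 and 15 with IgG. The 13 members called under both antibodies were Anln, Bub1, Ccna2, Cdc25b, Cenpf, Kif11, Kif20a, Kif23, Kif2c, Mki67, Nuf2, Nusap1 and Top2a. Every Kit+ CD45- library was above every Kit- CD41+ library for 17 members with anti-Dll4 and for 10 with IgG (12.6% and 13.1% of all genes). As a share of all counts the 35 genes overlapped, at 0.554% to 0.782% against 0.560% to 0.629% with anti-Dll4. With IgG that share was 0.634% to 0.726% against 0.570% to 0.654%. As a share of the counts outside globin genes the populations did not overlap under either antibody. The endothelial list of 12 genes summed to 460 to 915 CPM with anti-Dll4 and 878 to 1861 CPM with IgG in Kit+ CD45- libraries, and to 199 to 246 CPM and 185 to 308 CPM in Kit- CD41+ libraries, without overlap, and its part in these counts was not tested. The globin share did not overlap between these populations either, and with its log2 value as a covariate 9 members were called higher with anti-Dll4 and 6 with IgG. Without replicate 4 of Kit+ CD45- with anti-Dll4, the library with most globin, 14 members were higher. When each library of the 2 groups compared was left out in turn for every called member, which was chosen after seeing the data, 12 of the 18 calls with anti-Dll4 and 9 of the 14 with IgG held in each of the 8 fits. Leaving out replicate 2 of every group left 7 members with anti-Dll4 and 8 with IgG. Calls over all genes fell too: 4672 and 4357 in the main fit, against 3263 to 4434 and 3224 to 4097 in leave-out fits. Over the other alternatives, the covariate fit among them, 2870 to 5145 genes were called with anti-Dll4 and 2318 to 4766 with IgG. Under upper-quartile scaling 61.3% of all calls with anti-Dll4 were in the higher direction, against 49.0% under TMM.

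Kit+ CD45+ cells had less of a part of the mitosis RNA than Kit+ CD45- cells. With anti-Dll4, 15 of 35 members were lower and none higher, and with IgG 7 were lower and none higher, whereas 12.6% and 9.18% of all genes were called lower (29.2% and 19.2% in either direction). The fold changes were negative for 30 members with anti-Dll4 and for 26 with IgG, with medians of -0.38 and -0.22 against 0.10 and 0.04 over all genes. One member was higher with anti-Dll4 and 2 with IgG at an unadjusted p under 0.05, and DESeq2 called 17 and 7 lower and none higher. Called under both antibodies were Ccna2, Ccnb2, Cdc25b, Hmmr, Mki67 and Nusap1. Every Kit+ CD45+ library was below every Kit+ CD45- library for 13 members with anti-Dll4 and for 5 with IgG (9.36% and 8.79% of all genes). Every Kit+ CD45+ library was above every Kit+ CD45- library for 1 member with IgG, Cdk1 (10.9% of all genes), and for none with anti-Dll4 (15.1% of all genes). Globin RNA was nearly absent from Kit+ CD45+ cells, macrophage RNA nearly absent from Kit+ CD45- cells. The endothelial list summed to 1592 to 2032 CPM with anti-Dll4 and 1460 to 2119 CPM with IgG in Kit+ CD45+ libraries, overlapping those of Kit+ CD45- cells with IgG and not with anti-Dll4. The overlap with IgG came from replicate 1 of Kit+ CD45- cells alone, at 1861 CPM against 878, 990 and 1006 CPM in replicates 2, 3 and 4. The part of the endothelial list was not tested. With the globin share as a covariate no member and no gene was called, so that population and globin share cannot be told apart here. As a share of all counts the direction over the 35 genes turns round, as given above. In the same leave-one-out fits 11 of the 15 calls with anti-Dll4 and 3 of the 7 with IgG held throughout. The IgG count rests on single libraries: it was 12 without replicate 1 of Kit+ CD45- cells, 3 without replicate 2 or replicate 3 and 4 without replicate 4 of those cells, and 4 without replicate 1, 3 or 4 of Kit+ CD45+ cells. With anti-Dll4 it was 12, of which 1 was higher, without replicate 4 of Kit+ CD45- cells, and 9 and 8 without replicates 2 and 4 of every group. Calls over all genes moved too. With IgG they were 2998 in the main fit and 1551 to 3397 in leave-out fits, and with anti-Dll4 4560 and 2351 to 4950. Under upper-quartile scaling 46.2% of all calls with anti-Dll4 and 41.8% with IgG were in the higher direction, against 56.8% and 52.2% under TMM.

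Against Kit- CD41+ cells, Kit+ CD45+ cells had higher levels of some members and lower levels of others. With anti-Dll4, 6 members were higher and 4 lower, and with IgG 11 were higher and 2 lower, whereas 20.4% and 19.7% of all genes were called higher and 17.3% and 17.5% lower (37.6% and 37.2% in either direction). The members' share of calls in either direction was thus 28.6% with anti-Dll4 and 37.1% with IgG, near or under that of all genes. By direction, 17.1% of members were higher and 11.4% lower with anti-Dll4. With IgG 31.4% were higher, above the share of all genes, and 5.71% lower, under it. Median log2 fold changes were 0.08 and 0.16, against 0.06 and 0.05 over all genes. Higher under both antibodies were Anln, Cdk1, Kif20a, Kif23, Kif2c and Ndc80, and lower under both were Cdc25b and Mki67. Ccna2 and Hmmr were also lower with anti-Dll4. Every Kit+ CD45+ library was above every Kit- CD41+ library for 7 members with anti-Dll4 and 9 with IgG (19.5% and 19.4% of all genes), and below for 4 and 5 (17.6% and 19%). Kit+ CD45+ and Kit- CD41+ libraries did not overlap in the erythroid, megakaryocyte, macrophage or endothelial sums, whose part was not tested. With the globin share as a covariate no member was called. Held in all 8 leave-one-out fits were 4 of the 10 calls with anti-Dll4 and 6 of the 13 with IgG. The anti-Dll4 count was 6 without replicate 1, 2 or 4 of Kit- CD41+ cells, 6 without replicate 2 and 5 without replicate 4 of Kit+ CD45+ cells. The IgG count was 8 without replicate 3 of Kit- CD41+ cells and 7 without replicate 1 of Kit+ CD45+ cells, the library with little macrophage RNA. Calls over all genes fell too: 5875 with anti-Dll4 and 5815 with IgG in the main fit, against 4322 to 5795 and 4529 to 5486 in leave-out fits. Over the other alternatives, the covariate fit among them, 6 to 6281 genes were called with anti-Dll4 and 15 to 6264 with IgG.

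**Figure D2:**
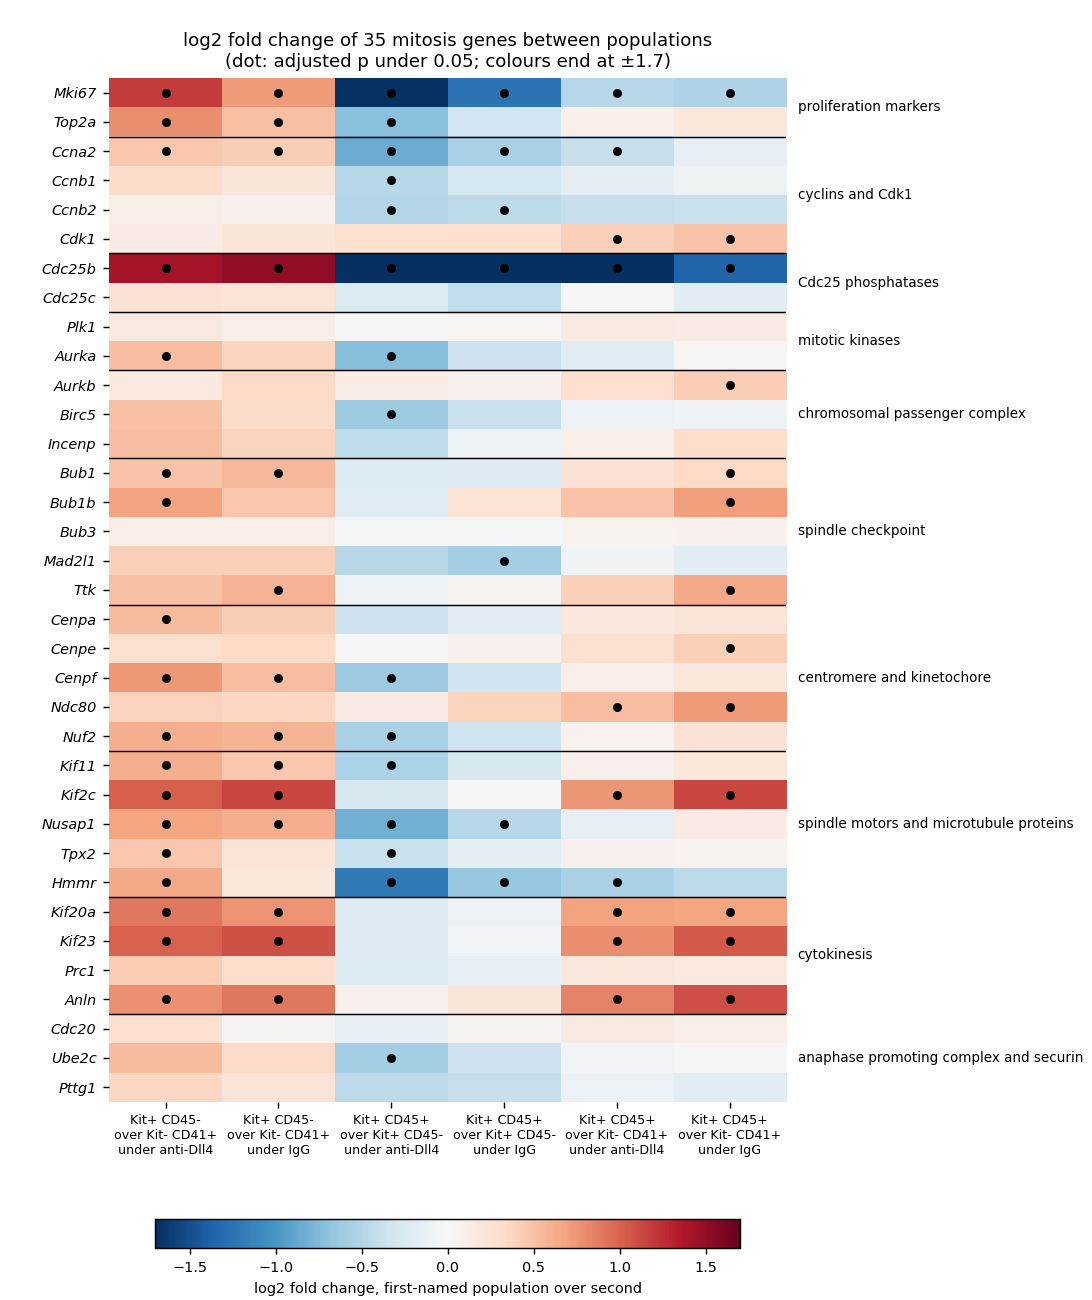
Log2 fold change of the 35 mitosis genes (rows, grouped by role) in the 6 comparisons between populations (columns), first-named population over second, with a black dot where the adjusted p was under 0.05. Columns 1 and 2 are positive throughout, and the cytokinesis genes Kif20a, Kif23 and Anln carry dots in both comparisons with Kit- CD41+ cells and in neither comparison between the Kit+ populations.

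Among the proliferation markers, Mki67 encodes Ki-67, which coats mitotic chromosomes and marks cycling cells, and Top2a encodes topoisomerase II alpha, which untangles sister chromatids. Mki67 lies at chr7:135689784-135716361 on the minus strand (mm10). Mki67 had 64.5, 58.9, 73.5 and 59.7 CPM with anti-Dll4, against 46.6, 65.8, 49.1 and 61.9 CPM with IgG, in Kit+ CD45+ cells. Mki67 in Kit+ CD45- cells stood at 148, 207, 169.5 and 300.4 CPM with anti-Dll4, against 108, 143, 133 and 149 CPM with IgG. Mki67 in Kit- CD41+ cells stood at 96.3, 107, 61.9 and 95.1 CPM with anti-Dll4, against 77.1, 74.6, 76.9 and 93.3 CPM with IgG. The Kit+ CD45- libraries were above all others, and replicate 4 with anti-Dll4 was the highest of the 24. The log2 fold change of Mki67 in Kit+ CD45- over Kit- CD41+ cells was 1.19 ± 0.19 (SE) with anti-Dll4 (adjusted p = 3.78e-05) and 0.73 ± 0.19 (adjusted p = 0.00531) with IgG. For Kit+ CD45+ over Kit+ CD45- cells it was -1.68 ± 0.19 (adjusted p = 7.04e-07) with anti-Dll4 and -1.25 ± 0.19 (adjusted p = 4.51e-05) with IgG. Against Kit- CD41+ cells, Kit+ CD45+ cells were lower by a log2 fold change of -0.49 ± 0.19 (adjusted p = 0.0443) with anti-Dll4, where the groups overlapped, and -0.53 ± 0.19 (adjusted p = 0.0313) with IgG, where they did not. That last pair of calls was lost with anti-Dll4 without replicate 1, 2 or 4 of either group (adjusted p = 0.0693 to 0.142), and with IgG without replicate 4 of Kit- CD41+ cells or replicate 1 or 3 of Kit+ CD45+ cells (adjusted p = 0.0882 to 0.0992). Top2a had 189, 225, 177 and 192 CPM with anti-Dll4, against 265, 191, 190.5 and 184 CPM with IgG, in Kit+ CD45+ cells. Top2a in Kit+ CD45- cells stood at 242, 328, 344 and 373 CPM with anti-Dll4, against 196, 256, 296 and 293 CPM with IgG. Top2a in Kit- CD41+ cells stood at 200.2, 194, 167 and 179 CPM with anti-Dll4, against 162, 201, 152 and 216 CPM with IgG. Top2a was higher in Kit+ CD45- than in Kit- CD41+ cells, by 0.80 ± 0.16 (adjusted p = 0.00045) with anti-Dll4 without overlap and by 0.51 ± 0.16 (adjusted p = 0.017) with IgG with overlap, a call that was lost without replicate 3 or 4 of Kit+ CD45- cells or replicate 1 or 3 of Kit- CD41+ cells (adjusted p = 0.0614 to 0.0685). It was lower in Kit+ CD45+ than in Kit+ CD45- cells with anti-Dll4, -0.72 ± 0.16 (adjusted p = 0.00146), while the value with IgG was -0.33 ± 0.16 (adjusted p = 0.157).

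Cyclins were called lower in Kit+ CD45+ than in Kit+ CD45- cells, and Cdk1 was called only against Kit- CD41+ cells. Ccna2 encodes cyclin A2 (S phase to early mitosis), Ccnb1 and Ccnb2 the B-type cyclins, and Cdk1 the kinase that they activate. Ccna2 lies at chr3:36564865-36572150 on the minus strand. Ccna2 had 249, 258, 258 and 236 CPM with anti-Dll4, against 259, 273, 264 and 272 CPM with IgG, in Kit+ CD45+ cells. Ccna2 in Kit+ CD45- cells stood at 389, 456, 451 and 506 CPM with anti-Dll4, against 351, 420.3, 409 and 389.7 CPM with IgG. Ccna2 in Kit- CD41+ cells stood at 356, 320.2, 323 and 308 CPM with anti-Dll4, against 280.5, 301, 281 and 309 CPM with IgG. Its standard errors were the smallest of the 35, with all 8 libraries of Kit+ CD45- cells above 7 of the 8 of Kit- CD41+ cells, and all of Kit+ CD45+ cells below every other library. Ccna2 was higher in Kit+ CD45- than in Kit- CD41+ cells by 0.46 ± 0.09 (adjusted p = 0.000479) with anti-Dll4 and 0.42 ± 0.09 (adjusted p = 0.00124) with IgG, without overlap within either antibody. It was lower in Kit+ CD45+ than in Kit+ CD45- cells by a log2 fold change of -0.85 ± 0.09 (adjusted p = 3.73e-07) with anti-Dll4 and -0.56 ± 0.09 (adjusted p = 0.000123) with IgG. Against Kit- CD41+ cells the values were -0.39 ± 0.09 (adjusted p = 0.0019) with anti-Dll4, a call, and -0.13 ± 0.09 (adjusted p = 0.277) with IgG. Cdk1 was highest in Kit+ CD45+ cells. Cdk1 had 572, 486, 474 and 512 CPM with anti-Dll4, against 522, 504, 526 and 509.7 CPM with IgG, in Kit+ CD45+ cells. Cdk1 in Kit+ CD45- cells stood at 428, 439, 325 and 500.4 CPM with anti-Dll4, against 405, 417, 455 and 415 CPM with IgG. Cdk1 in Kit- CD41+ cells stood at 417, 363, 324 and 434 CPM with anti-Dll4, against 343, 358, 353 and 414 CPM with IgG. Cdk1 was higher in Kit+ CD45+ than in Kit- CD41+ cells by 0.41 ± 0.12 (adjusted p = 0.00823) with anti-Dll4 and 0.49 ± 0.12 (adjusted p = 0.00207) with IgG, without overlap, and no other comparison between populations passed the test. With IgG every Kit+ CD45+ library of Cdk1 was also above every Kit+ CD45- library, 0.29 ± 0.12 (adjusted p = 0.0934). The anti-Dll4 call of Cdk1 was lost without replicate 3 of Kit- CD41+ cells (adjusted p = 0.0633). Ccnb2 had 446, 435, 399 and 342 CPM with anti-Dll4, against 244, 420.4, 386 and 408 CPM with IgG, in Kit+ CD45+ cells. Ccnb2 in Kit+ CD45- cells stood at 580.2, 574, 459.7 and 682 CPM with anti-Dll4, against 383, 560.2, 559 and 489.6 CPM with IgG. Ccnb2 in Kit- CD41+ cells stood at 551, 457, 495 and 633 CPM with anti-Dll4, against 456, 471, 461 and 504 CPM with IgG. Ccnb2 was lower in Kit+ CD45+ than in Kit+ CD45- cells under both antibodies, -0.50 ± 0.16 (adjusted p = 0.0203) with anti-Dll4 and -0.45 ± 0.16 (adjusted p = 0.0498) with IgG. For Ccnb2 the call was lost with anti-Dll4 without replicate 4 of Kit+ CD45+ cells or replicate 4 of Kit+ CD45- cells (adjusted p = 0.0792 to 0.0794) and with IgG without replicate 1, 3 or 4 of Kit+ CD45+ cells or replicate 2, 3 or 4 of Kit+ CD45- cells (adjusted p = 0.0503 to 0.185). Ccnb1 was lower in that comparison with anti-Dll4, -0.48 ± 0.13 (adjusted p = 0.00908), and had -0.28 ± 0.13 (adjusted p = 0.153) with IgG.

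Of the Cdc25 phosphatases, which remove the inhibitory phosphates from Cdk1, Cdc25b differed most between populations of all 35 members and Cdc25c passed no test. Cdc25b lies at chr2:131186949-131198497 on the plus strand and was the member with the fewest counts, 15 in its lowest library. Cdc25b had 2.14, 7.75, 1.29 and 2.25 CPM with anti-Dll4, against 4.59, 5.75, 5.25 and 1.79 CPM with IgG, in Kit+ CD45+ cells. Cdc25b in Kit+ CD45- cells stood at 28.8, 42.1, 35.7 and 65.8 CPM with anti-Dll4, against 20.4, 37.6, 30.6 and 39.4 CPM with IgG. Cdc25b in Kit- CD41+ cells stood at 10.9, 20.9, 12.3 and 20.4 CPM with anti-Dll4, against 7.10, 13.4, 11.8 and 12.8 CPM with IgG. The 3 populations did not overlap within either antibody: Kit+ CD45- libraries were highest and Kit+ CD45+ libraries lowest. Cdc25b was 12.7-fold lower in Kit+ CD45+ than in Kit+ CD45- cells with anti-Dll4, a log2 fold change of -3.66 ± 0.45 (adjusted p = 2.09e-06). With IgG the difference was 7.30-fold, -2.87 ± 0.44 (adjusted p = 4.62e-05). It was higher in Kit+ CD45- than in Kit- CD41+ cells by 1.41 ± 0.41 (adjusted p = 0.0109) and 1.50 ± 0.41 (adjusted p = 0.00798) with anti-Dll4 and IgG, and the anti-Dll4 call was lost without replicate 4 of Kit+ CD45- cells (adjusted p = 0.054). It was lower in Kit+ CD45+ than in Kit- CD41+ cells by a log2 fold change of -2.25 ± 0.44 (adjusted p = 0.000254) with anti-Dll4 and -1.36 ± 0.43 (adjusted p = 0.0141) with IgG. The IgG call was lost without replicate 4 of Kit+ CD45+ cells (adjusted p = 0.0514). Cdc25c averaged 30.5 ± 3.41 and 29.5 ± 6.06 CPM in Kit+ CD45+ cells, 36.1 ± 3.10 and 39.4 ± 6.56 CPM in Kit+ CD45- cells and 30.5 ± 3.34 and 33.8 ± 7.92 CPM in Kit- CD41+ cells, with anti-Dll4 and IgG in that order.

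Of the mitotic kinases, which act at the spindle poles, Aurka (Aurora A) was called and Plk1 (Polo-like kinase 1) was not. Aurka was higher in Kit+ CD45- than in Kit- CD41+ cells with anti-Dll4, 0.52 ± 0.15 (adjusted p = 0.012), and lower in Kit+ CD45+ than in Kit+ CD45- cells with anti-Dll4, -0.72 ± 0.15 (adjusted p = 0.00108). For Aurka the first of these was lost without replicate 4 of Kit+ CD45- cells or replicate 3 of Kit- CD41+ cells (adjusted p = 0.055 to 0.0902). The same comparisons with IgG gave 0.37 ± 0.15 (adjusted p = 0.0739) and -0.35 ± 0.15 (adjusted p = 0.113). Plk1 passed no test, with group means from 81.4 to 94.9 CPM. Of the chromosomal passenger complex, which corrects wrong attachments and guides cytokinesis, Aurkb (Aurora B) was higher in Kit+ CD45+ than in Kit- CD41+ cells with IgG, 0.41 ± 0.15 (adjusted p = 0.0292), and had 0.29 ± 0.15 (adjusted p = 0.126) with anti-Dll4. For Aurkb the call was lost without replicate 1 or 2 of Kit+ CD45+ cells or replicate 1, 3 or 4 of Kit- CD41+ cells (adjusted p = 0.0564 to 0.0891). Birc5 (survivin) was lower in Kit+ CD45+ than in Kit+ CD45- cells with anti-Dll4, -0.60 ± 0.21 (adjusted p = 0.0303), and had -0.38 ± 0.21 (adjusted p = 0.217) with IgG. For Birc5 the call was lost without replicate 2, 3 or 4 of Kit+ CD45+ cells or replicate 1 or 4 of Kit+ CD45- cells (adjusted p = 0.054 to 0.168). Incenp, the scaffold of the complex, passed no test.

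The spindle checkpoint genes held both an even and several uneven members. Bub3, a WD-repeat protein that brings Bub1 to kinetochores, had group means between 394 and 424 CPM, the narrowest range of the 35. Bub1 encodes the kinase that recruits the other checkpoint proteins. Bub1 had 131, 147, 153 and 142 CPM with anti-Dll4, against 168, 175, 144 and 143 CPM with IgG, in Kit+ CD45+ cells. Bub1 in Kit+ CD45- cells stood at 142, 192, 196 and 148 CPM with anti-Dll4, against 213, 166, 171 and 183 CPM with IgG. Bub1 in Kit- CD41+ cells stood at 119.7, 123, 119 and 121 CPM with anti-Dll4, against 136, 127, 96.7 and 137 CPM with IgG. Bub1 was higher in Kit+ CD45- than in Kit- CD41+ cells without overlap, by 0.49 ± 0.13 (adjusted p = 0.0052) with anti-Dll4 and 0.56 ± 0.13 (adjusted p = 0.00181) with IgG. It was also higher in Kit+ CD45+ than in Kit- CD41+ cells with IgG, 0.34 ± 0.13 (adjusted p = 0.0385), and had 0.25 ± 0.13 (adjusted p = 0.137) with anti-Dll4. For Bub1 the IgG call over Kit- CD41+ cells in Kit+ CD45+ cells was lost without replicate 1 or 2 of Kit+ CD45+ cells or replicate 2 or 3 of Kit- CD41+ cells (adjusted p = 0.0622 to 0.162). Bub1b (BubR1, which holds the anaphase promoting complex inactive) was higher in Kit+ CD45- than in Kit- CD41+ cells with anti-Dll4, 0.69 ± 0.23 (adjusted p = 0.0245), and in Kit+ CD45+ than in Kit- CD41+ cells with IgG, 0.71 ± 0.23 (adjusted p = 0.0162). For Bub1b these calls were lost with anti-Dll4 without replicate 3 of Kit+ CD45- cells or replicate 1 or 4 of Kit- CD41+ cells (adjusted p = 0.0781 to 0.109) and with IgG without replicate 1 of Kit+ CD45+ cells or replicate 3 of Kit- CD41+ cells (adjusted p = 0.0554 to 0.106). Ttk (Mps1 kinase, which starts the checkpoint signal) was higher with IgG in both Kit+ populations, by 0.64 ± 0.19 (adjusted p = 0.0102) in Kit+ CD45+ and 0.60 ± 0.19 (adjusted p = 0.0214) in Kit+ CD45- over Kit- CD41+ cells, and the call in Kit+ CD45- cells was lost without replicate 1 or 4 of Kit+ CD45- cells or replicate 2 or 3 of Kit- CD41+ cells (adjusted p = 0.0658 to 0.0887). Mad2l1 encodes Mad2, which inhibits Cdc20. Mad2l1 had 341, 196, 226 and 217 CPM with anti-Dll4, against 195, 207, 207 and 252 CPM with IgG, in Kit+ CD45+ cells. Mad2l1 in Kit+ CD45- cells stood at 407, 312, 249 and 389 CPM with anti-Dll4, against 262, 349, 364 and 311 CPM with IgG. Mad2l1 in Kit- CD41+ cells stood at 259.9, 222, 229 and 313 CPM with anti-Dll4, against 184, 247, 218 and 325 CPM with IgG. With IgG every Kit+ CD45+ library of Mad2l1 was below every Kit+ CD45- library, -0.58 ± 0.19 (adjusted p = 0.0342), and with anti-Dll4 the groups overlapped, -0.47 ± 0.19 (adjusted p = 0.0651). The IgG call was lost without replicate 2, 3 or 4 of Kit+ CD45- cells or replicate 1, 2 or 3 of Kit+ CD45+ cells (adjusted p = 0.0529 to 0.0925).

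At centromere and kinetochore, Ndc80 and Nuf2 are partners in the complex that grips microtubules, yet their levels were ordered differently. Ndc80 had 111, 114, 116 and 128 CPM with anti-Dll4, against 138, 129.9, 119.6 and 113 CPM with IgG, in Kit+ CD45+ cells. Ndc80 in Kit+ CD45- cells stood at 78.8, 167, 95.9 and 85.3 CPM with anti-Dll4, against 97.9, 85.3, 115 and 88.0 CPM with IgG. Ndc80 in Kit- CD41+ cells stood at 88.7, 73.8, 70.8 and 92.5 CPM with anti-Dll4, against 67.8, 88.4, 63.9 and 83.5 CPM with IgG. Ndc80 was higher in Kit+ CD45+ than in Kit- CD41+ cells without overlap, by 0.52 ± 0.18 (adjusted p = 0.0239) with anti-Dll4 and 0.72 ± 0.18 (adjusted p = 0.00267) with IgG, and did not pass between Kit+ CD45- and Kit- CD41+ cells, 0.39 ± 0.18 (adjusted p = 0.106) and 0.35 ± 0.18 (adjusted p = 0.159). For Ndc80 the anti-Dll4 call was lost without replicate 4 of Kit+ CD45+ cells or replicate 2 or 3 of Kit- CD41+ cells (adjusted p = 0.0636 to 0.0947). Nuf2 had 132, 113, 109.6 and 104 CPM with anti-Dll4, against 115, 119, 101 and 122 CPM with IgG, in Kit+ CD45+ cells. Nuf2 in Kit+ CD45- cells stood at 151, 207, 133 and 182 CPM with anti-Dll4, against 116, 155, 156 and 149 CPM with IgG. Nuf2 in Kit- CD41+ cells stood at 109.6, 106, 94.6 and 128 CPM with anti-Dll4, against 79.5, 91.8, 95.3 and 119 CPM with IgG. Nuf2 was higher in Kit+ CD45- than in Kit- CD41+ cells by 0.62 ± 0.15 (adjusted p = 0.00237) with anti-Dll4, without overlap, and by 0.58 ± 0.15 (adjusted p = 0.00447) with IgG, with overlap. It was lower in Kit+ CD45+ than in Kit+ CD45- cells with anti-Dll4, -0.55 ± 0.15 (adjusted p = 0.00635). Whether the partners differ from each other was not tested. Cenpf, a large kinetochore protein, was called like Nuf2, with 0.74 ± 0.17 (adjusted p = 0.00152) and 0.52 ± 0.17 (adjusted p = 0.0205) in Kit+ CD45- over Kit- CD41+ cells and -0.62 ± 0.17 (adjusted p = 0.00663) in Kit+ CD45+ over Kit+ CD45- cells with anti-Dll4. For Cenpf the IgG call was lost without replicate 3 or 4 of Kit+ CD45- cells or replicate 1 or 3 of Kit- CD41+ cells (adjusted p = 0.0676 to 0.14). Cenpa had 538, 417, 359 and 420.5 CPM with anti-Dll4, against 345, 443, 431 and 401 CPM with IgG, in Kit+ CD45+ cells. Cenpa in Kit+ CD45- cells stood at 600.3, 508, 418 and 688 CPM with anti-Dll4, against 376, 479.5, 548 and 443 CPM with IgG. Cenpa in Kit- CD41+ cells stood at 367, 339, 339 and 481 CPM with anti-Dll4, against 295, 346, 346 and 399.9 CPM with IgG. Cenpa, the centromeric histone H3 variant, was higher in Kit+ CD45- than in Kit- CD41+ cells with anti-Dll4, 0.54 ± 0.16 (adjusted p = 0.0135), a call that was lost without replicate 4 of Kit+ CD45- cells or replicate 3 of Kit- CD41+ cells (adjusted p = 0.0562 to 0.0783). Cenpe, a kinetochore kinesin, was higher in Kit+ CD45+ than in Kit- CD41+ cells with IgG, 0.40 ± 0.15 (adjusted p = 0.0396), and this was lost without replicate 1, 2 or 4 of Kit+ CD45+ cells or replicate 1, 2 or 3 of Kit- CD41+ cells (adjusted p = 0.051 to 0.125).

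All 5 spindle motors and microtubule proteins were higher in Kit+ CD45- than in Kit- CD41+ cells with anti-Dll4, and 3 of the 5 with IgG, in a comparison that called 14.7% and 14% of all genes higher. Kif11 encodes Eg5, the kinesin that pushes spindle poles apart. Kif11 had 58.7, 71.9, 61.4 and 58.6 CPM with anti-Dll4, against 76.6, 77.9, 56.0 and 63.8 CPM with IgG, in Kit+ CD45+ cells. Kif11 in Kit+ CD45- cells stood at 73.0, 99.4, 102 and 88.8 CPM with anti-Dll4, against 97.3, 74.4, 79.5 and 79.9 CPM with IgG. Kif11 in Kit- CD41+ cells stood at 55.2, 58.2, 60.4 and 63.3 CPM with anti-Dll4, against 53.5, 68.8, 60.2 and 58.9 CPM with IgG. Kif11 was higher in Kit+ CD45- than in Kit- CD41+ cells without overlap, by 0.62 ± 0.13 (adjusted p = 0.000994) with anti-Dll4 and 0.46 ± 0.13 (adjusted p = 0.0115) with IgG, and lower in Kit+ CD45+ than in Kit+ CD45- cells with anti-Dll4, -0.54 ± 0.13 (adjusted p = 0.00374). For Kif11 the call over Kit- CD41+ cells with IgG was lost without replicate 1 of Kit+ CD45- cells (adjusted p = 0.0527). Kif2c encodes MCAK, which takes microtubule ends apart. Kif2c had 27.7, 67.4, 57.4 and 53.6 CPM with anti-Dll4, against 89.0, 59.1, 52.8 and 44.1 CPM with IgG, in Kit+ CD45+ cells. Kif2c in Kit+ CD45- cells stood at 38.7, 82.2, 79.2 and 47.9 CPM with anti-Dll4, against 85.2, 56.9, 41.7 and 62.3 CPM with IgG. Kif2c in Kit- CD41+ cells stood at 28.4, 32.1, 32.2 and 30.0 CPM with anti-Dll4, against 32.8, 30.5, 24.7 and 23.7 CPM with IgG. The libraries of Kif2c spread widely within each Kit+ group, and none with IgG fell into the range of Kit- CD41+ cells. Kif2c was higher in Kit+ CD45- than in Kit- CD41+ cells by 1.02 ± 0.27 (adjusted p = 0.00598) with anti-Dll4 and 1.14 ± 0.27 (adjusted p = 0.00267) with IgG. For Kit+ CD45+ over Kit- CD41+ cells it was higher by 0.75 ± 0.27 (adjusted p = 0.0316) with anti-Dll4, where replicate 1 overlapped, and 1.13 ± 0.27 (adjusted p = 0.00192) with IgG. For Kif2c this call with anti-Dll4 was lost without replicate 2, 3 or 4 of Kit+ CD45+ cells or any 1 replicate of Kit- CD41+ cells (adjusted p = 0.0528 to 0.115). Hmmr, a spindle pole protein also known as RHAMM, lies at chr11:40701395-40733422 on the minus strand. Hmmr had 190.0, 204, 186 and 174 CPM with anti-Dll4, against 206, 220.0, 171 and 193 CPM with IgG, in Kit+ CD45+ cells. Hmmr in Kit+ CD45- cells stood at 371, 424, 299.9 and 639 CPM with anti-Dll4, against 164, 384, 371 and 310.2 CPM with IgG. Hmmr in Kit- CD41+ cells stood at 282, 281, 253 and 292 CPM with anti-Dll4, against 258, 236, 248 and 333 CPM with IgG. Kit+ CD45+ libraries of Hmmr reached 220.02 CPM at most, and the widest spread was within Kit+ CD45- cells. Hmmr was lower in Kit+ CD45+ than in Kit+ CD45- cells by a log2 fold change of -1.20 ± 0.21 (adjusted p = 0.000162) with anti-Dll4 and -0.64 ± 0.21 (adjusted p = 0.0342) with IgG. The IgG call of Hmmr, where replicate 1 of Kit+ CD45- cells was as low as the Kit+ CD45+ libraries, was lost without replicate 2, 3 or 4 of Kit+ CD45- cells or replicate 1, 3 or 4 of Kit+ CD45+ cells (adjusted p = 0.0565 to 0.126). Hmmr was higher in Kit+ CD45- than in Kit- CD41+ cells with anti-Dll4, 0.64 ± 0.21 (adjusted p = 0.0222), a call that was lost without replicate 4 of Kit+ CD45- cells or replicate 3 of Kit- CD41+ cells (adjusted p = 0.0699 to 0.17), and had 0.19 ± 0.21 (adjusted p = 0.538) with IgG. It was lower in Kit+ CD45+ than in Kit- CD41+ cells with anti-Dll4, -0.55 ± 0.21 (adjusted p = 0.0402), a call that was lost without replicate 1, 2 or 4 of Kit- CD41+ cells or any 1 replicate of Kit+ CD45+ cells (adjusted p = 0.0534 to 0.095). Nusap1 had 186, 160.0, 141 and 161 CPM with anti-Dll4, against 143, 179.8, 198 and 185 CPM with IgG, in Kit+ CD45+ cells. Nusap1 in Kit+ CD45- cells stood at 271, 307, 199 and 363 CPM with anti-Dll4, against 184, 257, 279 and 266 CPM with IgG. Nusap1 in Kit- CD41+ cells stood at 188, 169, 156 and 199.8 CPM with anti-Dll4, against 136, 158, 153 and 194 CPM with IgG. Nusap1, which bundles spindle microtubules, was lower in Kit+ CD45+ than in Kit+ CD45- cells by a log2 fold change of -0.81 ± 0.17 (adjusted p = 0.000676) with anti-Dll4 and -0.48 ± 0.16 (adjusted p = 0.0427) with IgG. For Nusap1 this call with IgG was lost without replicate 1, 2 or 4 of Kit+ CD45+ cells or replicate 2, 3 or 4 of Kit+ CD45- cells (adjusted p = 0.0629 to 0.139). It was higher in Kit+ CD45- than in Kit- CD41+ cells by 0.68 ± 0.17 (adjusted p = 0.00301) and 0.62 ± 0.16 (adjusted p = 0.00634) with anti-Dll4 and IgG. Tpx2, which activates Aurora A on the spindle, was higher in Kit+ CD45- than in Kit- CD41+ cells with anti-Dll4, 0.46 ± 0.13 (adjusted p = 0.00766), and lower in Kit+ CD45+ than in Kit+ CD45- cells with anti-Dll4, -0.38 ± 0.13 (adjusted p = 0.0233). For Tpx2 the call between the Kit+ populations was lost without replicate 4 of Kit+ CD45+ cells or replicate 2 or 4 of Kit+ CD45- cells (adjusted p = 0.0664 to 0.0868).

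Of the 4 cytokinesis genes, Kif20a, Kif23 and Anln were higher in Kit+ CD45+ and in Kit+ CD45- cells than in Kit- CD41+ cells under both antibodies, and none of the 4 passed between the Kit+ populations. Of all genes, 20.4% with anti-Dll4 and 19.7% with IgG were higher in Kit+ CD45+ and 14.7% and 14% in Kit+ CD45- over Kit- CD41+ cells, and 29.2% and 19.2% were called between the Kit+ populations. For Kif20a the calls over Kit- CD41+ cells were lost in Kit+ CD45+ cells with anti-Dll4 without replicate 2, 3 or 4 of Kit+ CD45+ cells or replicate 1, 2 or 4 of Kit- CD41+ cells (adjusted p = 0.0516 to 0.103) and with IgG without replicate 1 of Kit+ CD45+ cells or replicate 1, 3 or 4 of Kit- CD41+ cells (adjusted p = 0.0523 to 0.0963), and in Kit+ CD45- cells with IgG without replicate 1 of Kit+ CD45- cells (adjusted p = 0.0572). Kif23 (MKLP1, the motor of the central spindle) lies at chr9:61915905-61946774 on the minus strand. Kif23 had 56.1, 65.5, 84.6 and 68.6 CPM with anti-Dll4, against 82.4, 83.2, 74.4 and 61.7 CPM with IgG, in Kit+ CD45+ cells. Kif23 in Kit+ CD45- cells stood at 54.0, 97.6, 87.7 and 79.6 CPM with anti-Dll4, against 65.8, 78.2, 82.0 and 85.1 CPM with IgG. Kif23 in Kit- CD41+ cells stood at 46.2, 37.3, 45.4 and 30.2 CPM with anti-Dll4, against 32.1, 31.0, 32.7 and 50.6 CPM with IgG. Kit- CD41+ libraries of Kif23 reached 50.6 CPM and the lowest of the 16 Kit+ libraries stood at 54.0 CPM, so that they did not overlap. Kif23 was 2.00-fold higher in Kit+ CD45- than in Kit- CD41+ cells with anti-Dll4, 1.00 ± 0.19 (adjusted p = 0.000286), and 2.13-fold with IgG, 1.09 ± 0.19 (adjusted p = 0.000123). In Kit+ CD45+ over Kit- CD41+ cells the values were 0.79 ± 0.19 (adjusted p = 0.00201) with anti-Dll4 and 1.05 ± 0.19 (adjusted p = 0.000122) with IgG. Anln had 41.4, 51.4, 35.2 and 54.4 CPM with anti-Dll4, against 57.3, 61.8, 51.3 and 45.9 CPM with IgG, in Kit+ CD45+ cells. Anln in Kit+ CD45- cells stood at 34.2, 62.6, 42.4 and 34.3 CPM with anti-Dll4, against 65.6, 41.3, 40.2 and 40.5 CPM with IgG. Anln in Kit- CD41+ cells stood at 33.1, 25.4, 16.7 and 26.2 CPM with anti-Dll4, against 26.0, 21.2, 26.9 and 27.2 CPM with IgG. Anln, which encodes the contractile ring scaffold anillin, had every Kit+ library above the Kit- CD41+ libraries of the same antibody. Anln was higher in Kit+ CD45+ than in Kit- CD41+ cells by 0.85 ± 0.22 (adjusted p = 0.00364) with anti-Dll4 and 1.10 ± 0.22 (adjusted p = 0.000343) with IgG, and in Kit+ CD45- than in Kit- CD41+ cells by 0.78 ± 0.22 (adjusted p = 0.00928) and 0.89 ± 0.22 (adjusted p = 0.00344). For Anln this call with anti-Dll4 was lost without replicate 2 of Kit+ CD45- cells (adjusted p = 0.0718). Kif20a (MKLP2, which carries the passenger complex to the central spindle) was higher by 0.68 ± 0.23 and 0.67 ± 0.23 in Kit+ CD45+ cells and by 0.90 ± 0.23 and 0.77 ± 0.23 in Kit+ CD45- cells over Kit- CD41+ cells. Prc1, which cross-links the central spindle, passed no test. Between the Kit+ populations Kif23 had -0.21 ± 0.19 (adjusted p = 0.425) with anti-Dll4 and -0.04 ± 0.19 (adjusted p = 0.908) with IgG. Whether the cytokinesis genes differ from the other roles was not tested.

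Among the anaphase promoting complex genes and securin, only Ube2c passed a test, lower in Kit+ CD45+ than in Kit+ CD45- cells with anti-Dll4, -0.59 ± 0.22 (adjusted p = 0.0476). For Ube2c the call was lost without replicate 2, 3 or 4 of Kit+ CD45+ cells or replicate 1 or 4 of Kit+ CD45- cells (adjusted p = 0.0733 to 0.29). Cdc20, the activator of the complex, had group means between 204 and 249 CPM and passed no test, and neither did Pttg1 (securin, the inhibitor of separase), at 71.1 to 112 CPM.

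The antibody moved no mitosis gene past the test in any population. In Kit+ CD45+ cells 0 of 35 members were called by edgeR, 0 by DESeq2 and 0 at an unadjusted p under 0.05, while edgeR called 0.0064% of all genes (1 gene). In Kit+ CD45- cells edgeR and DESeq2 called 0 members and 3 had an unadjusted p under 0.05, all positive, while edgeR called 0% of all genes. In Kit- CD41+ cells all 3 counts were 0, and edgeR called 0% of all genes. Of all 15618 genes, 453 in Kit+ CD45+, 1733 in Kit+ CD45- and 435 in Kit- CD41+ cells had an unadjusted p under 0.05. DESeq2 called 14, 82 and 2 genes in these populations. The fold changes of the 35 ran from -0.37 to 0.20 in Kit+ CD45+ cells, from -0.18 to 0.63 in Kit+ CD45- cells and from -0.16 to 0.52 in Kit- CD41+ cells, with medians of -0.09, 0.14 and 0.05, against 0, -0.03 and -0.01 over all genes. Of the 35, 10, 28 and 26 were positive in these populations. A p that misses the threshold does not show that levels were alike: the smallest standard error was 0.09 in each population, and the largest was 0.44 among Kit+ CD45+, 0.40 among Kit+ CD45- and 0.41 among Kit- CD41+ libraries. The fold change plus or minus 2 standard errors stayed within 1 log2 unit for 34, 33 and 34 members, with Cdc25b outside in all 3 populations and Mki67 in Kit+ CD45- cells.

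The members with the smallest p in Kit+ CD45- cells were Mki67, Hmmr and Ccna2. Mki67 had 148, 207, 169.5 and 300.4 CPM with anti-Dll4, against 108, 143, 133 and 149 CPM with IgG, a log2 fold change of 0.63 ± 0.19 (adjusted p = 0.255). The groups overlapped only in that replicate 1 with anti-Dll4, at 148.4 CPM, lay under replicate 4 with IgG, at 148.8 CPM. Hmmr had 0.50 ± 0.21 (adjusted p = 0.409) and Ccna2 0.20 ± 0.09 (adjusted p = 0.436), with the library values given above overlapping between antibodies. Globin took 22.1% to 49.3% of the counts of these anti-Dll4 libraries and 16.8% to 33.7% of the IgG libraries, and the anti-Dll4 library with 49.3% was the highest for Mki67, Hmmr and Ccna2. With the globin share as a covariate the log2 fold changes were 0.57 for Mki67, 0.38 for Hmmr and 0.18 for Ccna2, and edgeR called 0 members. The endothelial list, at 460 to 915 CPM in the anti-Dll4 and 878 to 1861 CPM in the IgG libraries of these cells, overlapped between antibodies, and its part in these values was not tested. In Kit- CD41+ cells the smallest p-values were those of Ccna2, 0.16 ± 0.09 (adjusted p = 1), Cdc25b, 0.52 ± 0.41 (adjusted p = 1), and Nuf2, 0.18 ± 0.15 (adjusted p = 1). In Kit+ CD45+ cells they were those of Bub1b, Ttk and Anln. Bub1b in Kit+ CD45+ cells stood at 32.1, 43.8, 48.3 and 54.6 CPM with anti-Dll4, against 83.6, 59.0, 36.5 and 51.3 CPM with IgG, a log2 fold change of -0.36 ± 0.22 (adjusted p = 1), and replicate 1 with IgG was the highest. Without replicate 1 of every group the value of Bub1b was 0.0010. Ttk in Kit+ CD45+ cells stood at 28.2, 32.5, 45.8 and 34.0 CPM with anti-Dll4, against 47.4, 38.9, 41.6 and 35.4 CPM with IgG, -0.22 ± 0.19 (adjusted p = 1), and Anln had -0.25 ± 0.21 (adjusted p = 1), with overlap for both. Ccna2 in Kit+ CD45+ cells was the single case of antibody groups that did not overlap, with every anti-Dll4 library below every IgG library, -0.09 ± 0.09 (adjusted p = 1), as for 0.839% of all genes, and it was picked out after its values were seen. Antibody groups of all genes lay apart with anti-Dll4 above for 0.96% in Kit+ CD45+, 0.916% in Kit+ CD45- and 1.07% in Kit- CD41+ cells, and below for 2.23% in Kit+ CD45- and 1.15% in Kit- CD41+ cells, with no member among them. Averaged over the 3 populations, 0 members were called by either tool, and edgeR called 0% of all genes. Over all 15618 genes 1311 had an unadjusted p under 0.05, and DESeq2 called 31 genes. Among the members 1 had an unadjusted p under 0.05. That was Mki67, 0.33 ± 0.11 (adjusted p = 0.503), followed by Ccnb2, 0.18 ± 0.09 (adjusted p = 0.598), and Cenpa, 0.17 ± 0.09 (adjusted p = 0.613). The test of whether the antibody effect differs between populations called 0 members by either tool, with 0 at an unadjusted p under 0.05, and 0.0256% of all genes by edgeR (4 genes). Over all 15618 genes 631 had an unadjusted p under 0.05 in that test, and DESeq2 called 25 genes. Among the members the smallest unadjusted p-values in it were 0.071 for Ccna2, 0.157 for Hmmr and 0.173 for Mki67, each with an adjusted p of 1 by edgeR.

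**Figure D3:**
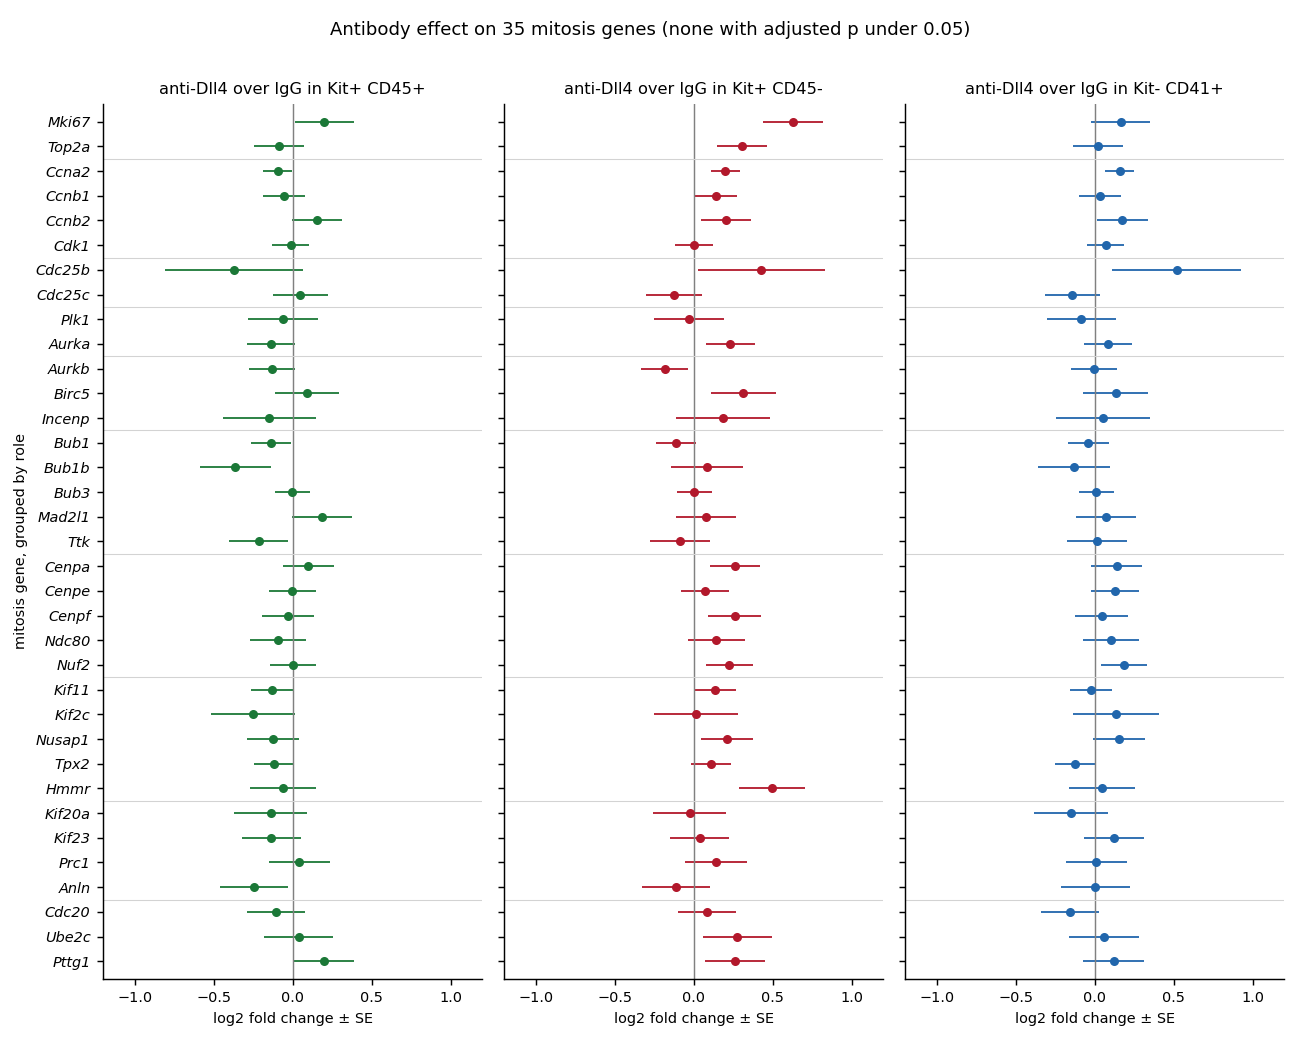
Log2 fold change of anti-Dll4 over IgG with its standard error for each of the 35 mitosis genes in Kit+ CD45+, Kit+ CD45- and Kit- CD41+ cells. Points lie between -0.37 and 0.63, and none had an adjusted p under 0.05.

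The other genes of the cell cycle were counted in the same fit. Of 112 further mitosis genes, 111 were tested. In Kit+ CD45- over Kit- CD41+ cells 44 were higher and 4 lower with anti-Dll4, and 37 higher and 7 lower with IgG. That is 39.6% and 33.3% higher, against 14.7% and 14% of all genes, and 3.60% and 6.31% lower, against 15.2% and 13.8%. Kit+ CD45+ over Kit+ CD45- cells had 2 higher and 41 lower with anti-Dll4 and 2 higher and 23 lower with IgG, so that 36.9% and 20.7% were lower, against 12.6% and 9.18% of all genes, and 1.80% higher under each antibody, against 16.6% and 10%. Kit+ CD45+ over Kit- CD41+ cells had 11 higher and 13 lower with anti-Dll4 and 20 higher and 14 lower with IgG. These shares, 9.91% and 18.0% higher and 11.7% and 12.6% lower, were under those of all genes, 20.4% and 19.7% higher and 17.3% and 17.5% lower. The median log2 fold changes of these 111 were 0.37 and 0.31, -0.38 and -0.22, and 0.01 and 0.08, in that order and with anti-Dll4 first. Named here are those with the smallest p in each comparison, and they include genes that ran against the direction of most of the list. Depdc1b averaged 37.1 ± 10.2 CPM in Kit+ CD45- cells and 110.1 ± 15.7 CPM in Kit- CD41+ cells with anti-Dll4 (SD, n = 4), lower by a log2 fold change of -1.57 ± 0.20 (adjusted p = 1.97e-06), and by a log2 fold change of -1.58 ± 0.20 (adjusted p = 2.03e-06) with IgG. Tuba1c, an alpha tubulin, was lower there too, by a log2 fold change of -1.28 ± 0.21 (adjusted p = 5.47e-05) and -1.26 ± 0.21 (adjusted p = 6.45e-05). Ect2, the exchange factor that activates RhoA for cytokinesis, was higher by 1.36 ± 0.23 (adjusted p = 9.73e-05) with IgG, and Kif20b, a kinesin of the midbody, by 0.84 ± 0.14 (adjusted p = 4.09e-05) with anti-Dll4. In Kit+ CD45+ over Kit+ CD45- cells Fbxo5, the early mitotic inhibitor Emi1 of the anaphase promoting complex, averaged 79.3 ± 8.27 CPM against 219 ± 51.0 CPM with anti-Dll4, lower by a log2 fold change of -1.46 ± 0.18 (adjusted p = 1.76e-06), and by a log2 fold change of -1.27 ± 0.18 (adjusted p = 1.5e-05) with IgG. Ska1, of the outer kinetochore, was lower by a log2 fold change of -1.18 ± 0.16 (adjusted p = 5.02e-06) and -0.94 ± 0.15 (adjusted p = 0.000103), and Cdca3 was lower by a log2 fold change of -1.19 ± 0.17 (adjusted p = 1.43e-05) with anti-Dll4. Cep55, which recruits the machinery of abscission, averaged 86.4 ± 10.3 CPM in Kit+ CD45+, 41.0 ± 15.2 CPM in Kit+ CD45- and 20.2 ± 3.47 CPM in Kit- CD41+ cells with IgG. It was higher in Kit+ CD45+ cells, by 1.07 ± 0.20 (adjusted p = 0.000375) over Kit+ CD45- cells with IgG and by 2.13 ± 0.21 (adjusted p = 2.21e-08) and 2.10 ± 0.20 (adjusted p = 2.19e-08) over Kit- CD41+ cells with anti-Dll4 and IgG. Mad2l1bp (p31comet, which releases Mad2) was lower in Kit+ CD45+ than in Kit- CD41+ cells by a log2 fold change of -1.95 ± 0.23 (adjusted p = 2.76e-07) and -2.08 ± 0.23 (adjusted p = 1.2e-07), and Mad2l2, a Mad2 relative with roles in DNA repair, by a log2 fold change of -1.23 ± 0.15 (adjusted p = 6.17e-07) and -1.36 ± 0.15 (adjusted p = 1.43e-07).

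DNA replication genes, which act before mitosis, were counted in the same way. Of 50, 23 with anti-Dll4 (46%) and 22 with IgG (44%) were higher in Kit+ CD45- than in Kit- CD41+ cells, against 14.7% and 14% of all genes, led under both antibodies by Lig1, Rpa2 and Rfc3. Lig1, the ligase that joins Okazaki fragments, had 0.65 ± 0.10 (adjusted p = 1.93e-05) with anti-Dll4 and 0.59 ± 0.10 (adjusted p = 7.87e-05) with IgG. Rpa2, of the protein that coats single-stranded DNA, had 0.63 ± 0.13 (adjusted p = 0.000614) and 0.56 ± 0.13 (adjusted p = 0.00191), and Rfc3, of the clamp loader, had 0.77 ± 0.15 (adjusted p = 0.000401) and 0.63 ± 0.15 (adjusted p = 0.0027). In Kit+ CD45+ over Kit+ CD45- cells 16 (32%) and 10 (20%) were lower, against 12.6% and 9.18% of all genes. With anti-Dll4 these were led by Pcna, the sliding clamp, at -0.58 ± 0.13 (adjusted p = 0.00161), Tyms, which makes thymidylate, at -0.88 ± 0.20 (adjusted p = 0.00169), and Gins4, of the replicative helicase, at -0.56 ± 0.13 (adjusted p = 0.00211). With IgG they were led by Slbp, which binds histone mRNA, at -0.53 ± 0.13 (adjusted p = 0.00431), Orc6, of the origin recognition complex, at -0.59 ± 0.15 (adjusted p = 0.00605), and Ccne2, cyclin E2, at -0.57 ± 0.15 (adjusted p = 0.00997). In Kit+ CD45+ over Kit- CD41+ cells 8 (16%) and 7 (14%) were higher, under the 20.4% and 19.7% of all genes. Lig1 had 0.47 ± 0.10 (adjusted p = 0.000541) with anti-Dll4 and 0.42 ± 0.10 (adjusted p = 0.00155) with IgG there, and Dbf4, which activates the Cdc7 kinase, had 0.45 ± 0.13 (adjusted p = 0.00931) and 0.51 ± 0.13 (adjusted p = 0.00337). Mcm3, of the helicase, had 0.91 ± 0.22 (adjusted p = 0.00201) with anti-Dll4 and Cdc7 had 0.74 ± 0.22 (adjusted p = 0.00899) with IgG. None of the 50 was called in the opposite direction; at an unadjusted p under 0.05, 1 was lower in Kit+ CD45- than in Kit- CD41+ cells with anti-Dll4, and 2 with anti-Dll4 and 1 with IgG were lower in Kit+ CD45+ than in Kit- CD41+ cells. The mean log2(CPM + 1) of the 35 mitosis genes less that of the 50 replication genes was 0.594 ± 0.0857 with anti-Dll4 and 0.630 ± 0.138 with IgG in Kit+ CD45+ cells. It was 0.736 ± 0.155 and 0.658 ± 0.203 for Kit+ CD45- libraries, and 0.675 ± 0.0927 and 0.642 ± 0.194 for Kit- CD41+ libraries, again with anti-Dll4 first, and the ranges of the 6 groups overlapped. Within Kit+ CD45- cells that difference was largest, 0.957, in replicate 4 with anti-Dll4, which had the most globin, and smallest, 0.413, in replicate 1 with IgG, which had the least. By rising globin, the libraries between these, from both antibodies, had 0.628 at 22.1%, 0.703 at 27.4%, 0.902 at 29.8%, 0.615 at 33.7%, 0.730 at 34.0% and 0.628 at 36.2%. The part of the globin share in this difference was not tested.

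**Figure D4:**
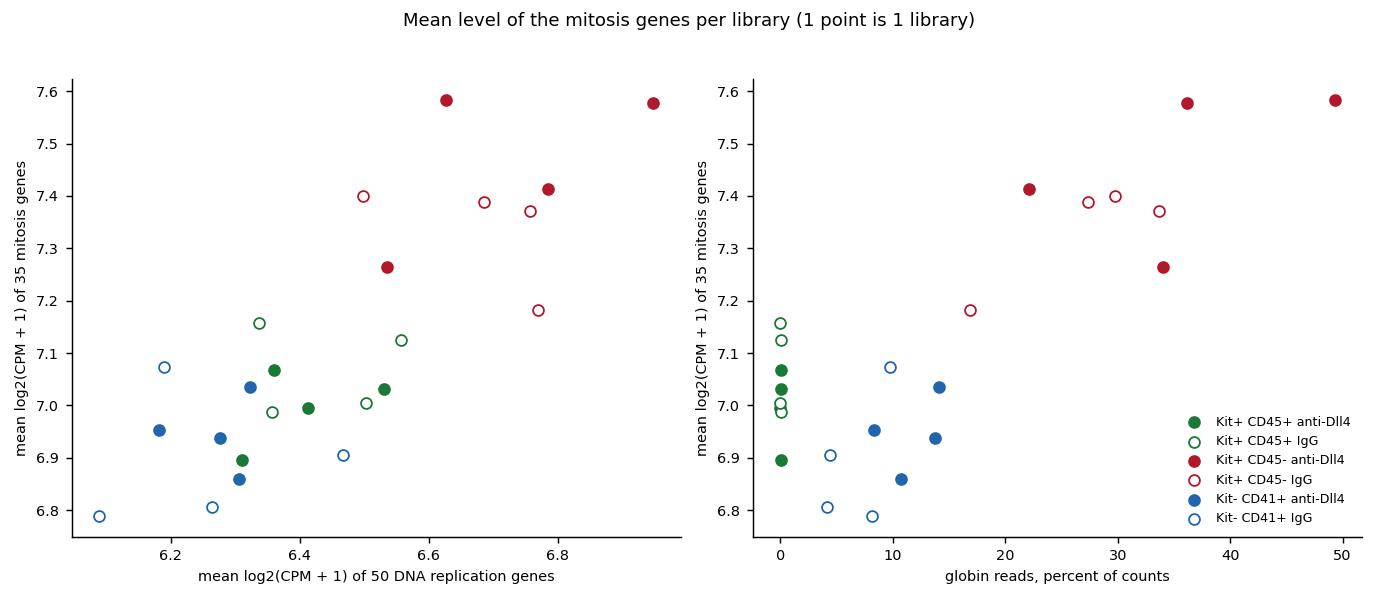
Mean log2(CPM + 1) of the 35 mitosis genes in each of the 24 libraries (y) against that of 50 DNA replication genes (x, left) and against the percent of counts from globin genes (x, right). The Kit+ CD45- libraries lie at 7.18 or above, and the other populations lie at 7.16 or below; all points of a library share its depth and scaling.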

How the data were processed

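The deposited files were a table of raw HTSeq read counts per gene and a table of log2 values. The submitters' processing notes name CASAVA 1.4, FastQC, STAR, HTSeq, DESeq2 and the mm10 build. Those sources give neither strand use in counting nor other versions nor the annotation release. The log2 values that the authors deposited equal log2(count / size factor + 1) and were used for gene names only; 1 column of that table matched no sample and was not used. cDNA was amplified by PCR and reads carry no molecular identifiers, so counts are not independent molecules.

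Counts of all 24 libraries entered 1 fit with a coefficient per group (edgeR 4.0.16 with limma 3.58.1 in R 4.3.3, TMM scaling, filterByExpr, robust quasi-likelihood test, 18 residual degrees of freedom). P-values were adjusted by Benjamini-Hochberg over 15618 genes, with a threshold of 0.05. Standard errors are the size of the log2 fold change divided by the square root of the F statistic. DESeq2 1.42.0 was an alternative. The members and lists were chosen with earlier results of these data known. Members given per library had the 5 smallest p-values among those called in a comparison (the 3 smallest where none was called), or were called against the majority; other lists give the 3 smallest p-values per comparison. Alternatives were RLE and upper-quartile scaling, no filter, a replicate block, globin genes removed, the globin share as a covariate, the compared groups alone, and leaving libraries out, which was extended to every called member after seeing the data. No pair of libraries of a group agreed within sampling noise (smallest chi-square per degree of freedom 12.2).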

Additional observations from a re-analysis of the deposited data

Results flagged for a closer look

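In 6 of 126 sets of 4 libraries (19 named members, and the summed and mean level of the 35, in 6 groups), 1 library lay apart from the other 3 beyond Dixon's 95% critical value; chance alone does this in about 1 of 20 sets. Anln in Kit+ CD45- cells with IgG was 65.6 CPM in replicate 1 and 40.2 to 41.3 CPM in the others. The mean log2(CPM + 1) of the 35 mitosis genes was lowest in the same library, at 7.18, against 7.37 to 7.40. Cdc25b in Kit+ CD45+ cells with anti-Dll4 was 7.75 CPM in replicate 2 and 1.29 to 2.25 CPM in the others. In Kit- CD41+ cells with IgG, replicate 4 stood apart for Kif23, at 50.6 CPM against 31.0 to 32.7 CPM, and for Mki67, at 93.3 CPM against 74.6 to 77.1 CPM. Top2a in Kit+ CD45+ cells with IgG was 265 CPM in replicate 1 and 184 to 191 CPM in the others. That library also had the least macrophage RNA of its group, 133 CPM over the list, and the part of cell composition in the Top2a value was not tested.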

How the results depend on the processing

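The antibody comparisons called 0 members under each alternative run. The population counts stayed within 1.5 times under RLE and upper-quartile scaling, DESeq2, no filter on low counts and globin genes removed. Upper-quartile scaling moved the median of all genes by 0.14 with anti-Dll4 and 0.10 with IgG for Kit+ CD45- over Kit- CD41+ cells and by -0.11 for Kit+ CD45+ over Kit+ CD45- cells with anti-Dll4; relative to that median the members stood at 0.43, 0.34 and -0.48 under both scalings.

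With the globin share as a covariate, which does not overlap between populations, the counts of members were 9 with anti-Dll4 and 6 with IgG for Kit+ CD45- over Kit- CD41+ cells, and 0 for each of the other population comparisons. That fit turned round log2 fold changes of Kit+ CD45+ over Kit+ CD45- cells for Cdc25b (1.97), Hmmr (2.40) and Nusap1 (1.77) with anti-Dll4, and for Mki67 (0.14), Cdc25b (2.59), Mad2l1 (2.51) and Hmmr (2.85) with IgG. For Kit+ CD45+ over Kit- CD41+ cells it turned round Cdc25b (2.60), Anln (-0.60), Hmmr (2.52) and Mki67 (0.74) with anti-Dll4, and Anln (-0.22), Kif2c (-0.86), Cdc25b (3.03) and Mki67 (0.60) with IgG. None of these reversed values passed the edgeR test (adjusted p = 0.339 to 0.977). Globin took at most 0.0226% of counts in Kit+ CD45+ libraries, against at least 16.8% in Kit+ CD45- and 4.18% in Kit- CD41+ libraries. The reversed values therefore extend the covariate across a gap without libraries and are not globin-adjusted differences. The same fit also turned round the antibody value of Nuf2 in Kit- CD41+ cells (-0.0095). With only the groups compared in the fit, 4 members were called for Kit+ CD45+ over Kit+ CD45- cells with IgG. There Hmmr had an adjusted p of 0.0812 by edgeR, and under upper-quartile scaling Hmmr and Mki67 had 0.0597 and 0.0633 for Kit+ CD45+ over Kit- CD41+ cells with anti-Dll4. The cause was not tested.

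Leaving libraries out gave 7 to 20 members with anti-Dll4 and 8 to 16 with IgG for Kit+ CD45- over Kit- CD41+ cells, 8 to 18 and 3 to 12 for Kit+ CD45+ over Kit+ CD45- cells, 5 to 10 and 6 to 12 for Kit+ CD45+ over Kit- CD41+ cells, and 0 for the antibody. Over all genes these population fits called 3263 to 4434 and 3224 to 4097, then 2351 to 4950 and 1551 to 3397. For Kit+ CD45+ over Kit- CD41+ cells they called 4322 to 5795 and 4529 to 5486 genes. The antibody value of Bub1b in Kit+ CD45+ cells ran from -0.57 to 0.0010 when 1 replicate was left out, the highest without replicate 1. Deviations of same-numbered libraries under different antibodies had correlations from -0.15 to 0.10. Column names also carry a leading number shared by the 3 populations of 1 antibody and replicate number (8 sets), and its meaning is not stated. Between populations within such sets the correlations ran from -0.064 to 0.20. They were all positive for Kit+ CD45- over Kit- CD41+ cells with anti-Dll4 and for both Kit+ CD45+ comparisons with IgG. The main fit took no pairing, and these values cannot settle whether sets shared material. With the replicate number as a block the counts were 18, 14 and 10 with anti-Dll4 and 14, 6 and 12 with IgG for the 3 population comparisons in the order above, and 0 for the antibody. With a block for each antibody and number they were 22, 19 and 12 with anti-Dll4 and 18, 8 and 14 with IgG.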
